A study of Mus musculus with 15 samples.

Results

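Potassium channels of the kidney were examined in mice with a Sim1-Cre deletion of Esrrg, the gene of the nuclear receptor ERRγ. The members were the 92 genes whose symbols start with Kcn, out of 23393 genes in each of 3 deposited comparisons, with Kcnj1, Kcnj10 and Kcnj16 left out by the rule. They comprise 40 voltage-gated pore subunits, 14 tandem-pore-domain subunits, 12 inward rectifiers, 8 calcium- and sodium-activated pore subunits, 17 accessory subunits and 1 non-coding RNA, Kcnq1ot1. A member was judged in a comparison where its mean normalized count there was at least 10, which held for 62 members in at least 1 comparison and for 45 in all 3. The remaining 30 members stayed under 10 everywhere, and 7 of them were listed at 0 in all 3 tables.

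Potassium channels are pores that let potassium leave or enter a cell along its electrochemical gradient. In kidney tubules they return potassium to the blood side beside the sodium pump, set the membrane voltage that drives reabsorption of sodium, bicarbonate and phosphate, and secrete potassium into the urine. Voltage-gated channels open on depolarization, inward rectifiers and tandem-pore channels carry resting currents, and calcium- or sodium-activated channels tie potassium flux to the ions inside the cell. Kidney RNA also carries channels of vessel walls, immune cells and nerves. ERRγ is an orphan nuclear receptor known for its action on genes of mitochondrial energy metabolism.

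All kidneys came from C57BL/6 mice with floxed ERRg alleles (ERRg fl/fl), so that the control littermates carry the same floxed alleles without Cre. The labels give 3 knockout (ERRg fl/fl;Sim1-Cre) and 3 control males at 3 months of age, 3 knockout and 2 control males at 3 weeks, and 2 knockout and 2 control females at 3 weeks, 15 libraries in all. The sources used here do not say which kidney cells Sim1-Cre reaches. The source names of the 3-month knockouts say female, where their titles and sex entries say male. In the authors' deposited table for that age the Y-linked Ddx3y had a mean normalized count of 1477, and Xist one of 11.9, against 0.831 and 23848 in the table of females.

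The tables hold no value per library, so each level is the mean over a table's libraries and each error is the standard error (SE) of the authors' deposited table. The steps of the lowest means were those of 5 libraries at 3 months, 4 in 3-week males and 4 in 3-week females. The labels give 6, 5 and 4, and which labelled libraries entered is not known. Steps with a positive fold change numbered 2 in every table. Those with a negative one numbered 3 at 3 months, 2 in 3-week males and 2 in 3-week females. Under the reading of the sign given below, the effects in males thus rest on 2 knockouts at either age, with 3 labelled. Normalized counts summed to 18.8 × 1e6 at 3 months, 47.5 × 1e6 in 3-week males and 33.9 × 1e6 in 3-week females, as a mean over libraries. Esrrg (plus strand of chromosome 1, 187608791 to 188214885, GRCm38 or mm10) was at a log2 fold change of -0.87 ± 0.57 with no p at 3 months, 0.82 ± 0.20 (adjusted p = 0.000613) in males at 3 weeks, and 1.04 ± 0.17 (adjusted p = 1.70e-08) in 3-week females in the authors' deposited tables. Its positive values at 3 weeks go against a ratio of knockout over control. The sources used here do not name the floxed exon, so a gene-wide count checks neither the deletion nor the labels.

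The headers leave unnamed which genotype is the numerator, and a positive value is read here as higher in the libraries labelled knockout. The series title ties ERRγ to reabsorptive functions, and a list of 10 proximal tubule markers had 2 of 2 tested genes lower at 3 months, 8 of 9 in 3-week males and 3 of 7 in 3-week females under this reading, with none higher. That list was chosen with earlier results of these data known, and 8 of its 10 genes had no p at 3 months. Over all tested genes 27.8% were lower at 3 months, 8.52% in 3-week males and 10.4% in 3-week females under this reading. Were the ratio the other way round, every higher value would be a lower one. A bulk kidney value cannot tell fewer cells of a type from less RNA per cell.

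Potassium channel genes moved in both directions, and more of those called were higher than lower in 3-month males. A gene was called at an adjusted p under 0.05 in the authors' deposited table. At 3 months 17 of 38 tested members rose and 6 fell, where 29.8% of all 12828 tested genes rose and 27.8% fell, and both directions together made 57.5%. Thus 44.7% of the tested members rose and 15.8% fell, with a median log2 fold change of 0.52 against 0.01 over all tested genes. Of 9 judged members without a p as outliers at 3 months 7 had a negative value, and keeping outliers with a normal p gives 18 higher and 9 lower of 47, with a median of 0.39. In 3-week males 7 of 57 tested members rose and 6 fell, 22.8% in both directions, where 8.81% of all genes rose and 8.52% fell (17.3% together). In 3-week females 7 of 54 rose and 11 fell, 33.3% in both directions, where 8.29% of all genes rose and 10.4% fell (18.7% together). Members reached a median of 0.07 in 3-week males and -0.07 in 3-week females.

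These splits move with the scaling. Scaling each genotype to its total count, in place of the authors' size factors, adds 0.49 to every log2 fold change at 3 months, 0.18 in 3-week males and 0.15 in 3-week females. It gives 24 members higher and 3 lower at 3 months, 12 higher and 4 lower in 3-week males, and 7 higher and 5 lower in 3-week females, with a member median in females of 0.08 in place of -0.07. Of the members called under this scaling 88.9%, 75.0% and 58.3% were higher in these tables, where 84.0%, 75.2% and 74.0% of all called genes were. No call changed its direction, and calls that ended are given with the genes described. Of 35 members called in at least 1 comparison, Kcnd3, Kcnh2 and Kcnh8 rose and Kcnn2 fell in all 3.

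**Figure D1:**
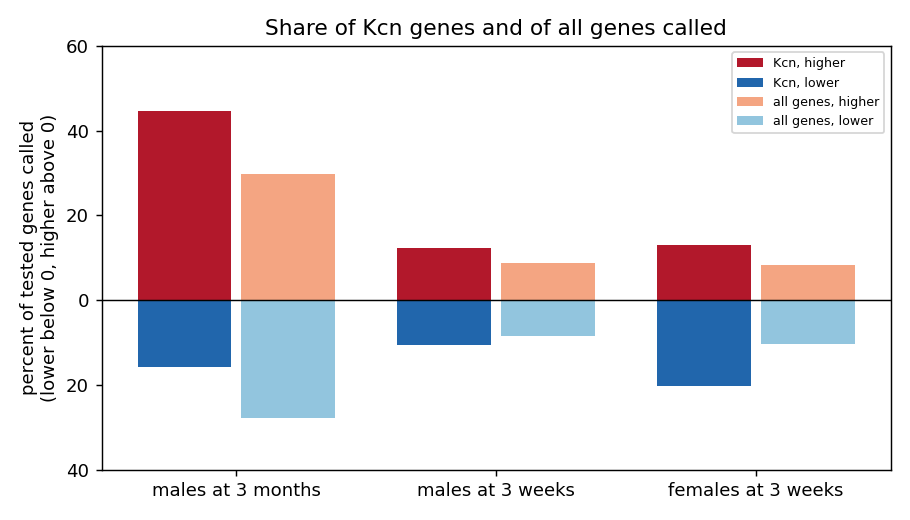
Bars give the percent of tested genes called higher (above 0) and lower (below 0) in the knockout, for Kcn genes (dark) and all tested genes (light), in the 3 comparisons of the authors' deposited tables. At 3 months 44.7% of Kcn genes are higher, against 29.8% of all genes, and 15.8% are lower, against 27.8%.

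Judged by level per kilobase of annotated exon, 5 members stood above the others. Kcnj15, an inward rectifier of the basolateral membrane of tubule cells, led each table, with a mean normalized count per kilobase of 3920.5 at 3 months, 6343 in 3-week males and 4750.5 in 3-week females. Kcnk1 followed with 651, 3447 and 2571, and Kcnk5, the acid- and alkali-sensitive background channel of the proximal tubule, with 845, 1183 and 852 in the same order of tables. Kcnq1 reached 224, 569.9 and 373, and its accessory partner Kcne1 165, 503 and 327. The order of the first 5 was the same in both tables of 3-week kidneys, and at 3 months Kcnk5 stood above Kcnk1. Tables were normalized separately, so levels are ordered within a table and not compared across tables.

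**Figure D2:**
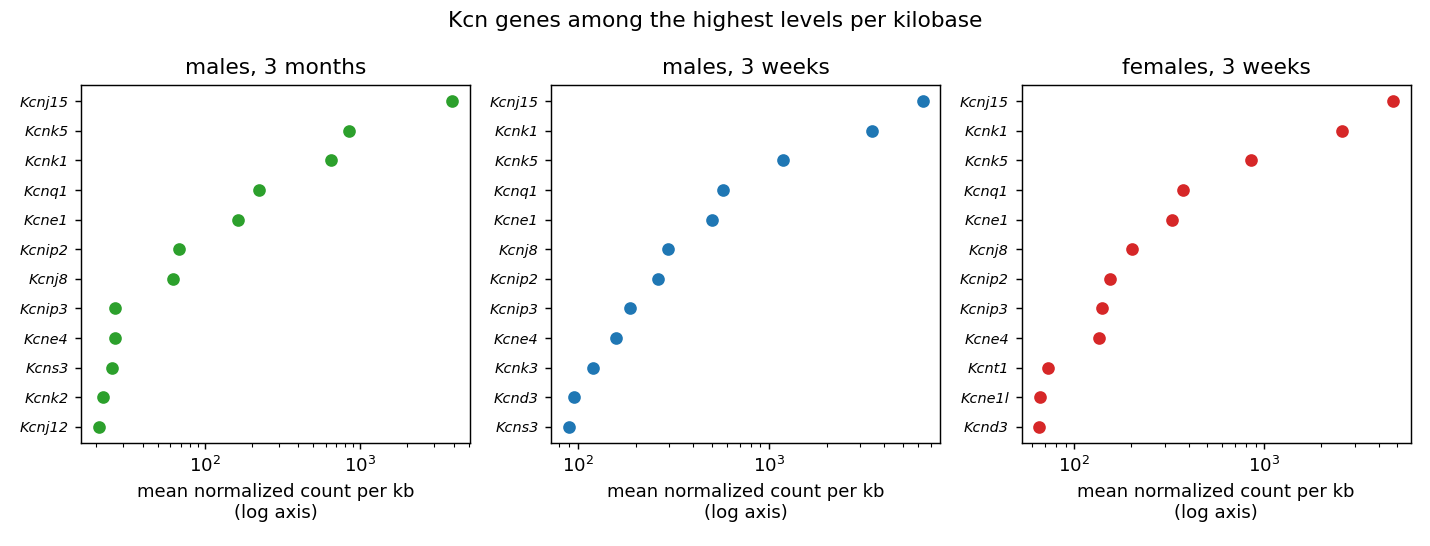
Each point is the mean normalized count per kilobase of exon (log axis) of a Kcn gene, for 12 of those with the highest levels in that table, over knockout and control libraries together. Kcnj15 is highest in all 3 tables, at 3920.5 in 3-month males, 6343 in 3-week males and 4750.5 in 3-week females.

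Among the voltage-gated pore subunits Kcnd3, Kcnh2 and Kcnh8 rose in all 3 comparisons. Of 12 tested at 3 months 5 rose and 1 fell, of 24 in 3-week males 5 rose and 1 fell, and of 23 in 3-week females 6 rose and 2 fell, with median log2 fold changes of 0.51, 0.41 and 0.29. Of all tested genes 29.8%, 8.81% and 8.29% rose in these tables, and 27.8%, 8.52% and 10.4% fell. Kcnh2 encodes the hERG channel of cardiac repolarization. In the authors' deposited tables it was at 1.97 ± 0.48 (adjusted p = 0.000110) at 3 months, 1.19 ± 0.33 (adjusted p = 0.00336) in males at 3 weeks, and 1.04 ± 0.26 (adjusted p = 0.000939) in 3-week females. Kcnh8, of the same ether-à-go-go group, was at 3.82 ± 0.69 (adjusted p = 1.70e-07), 2.02 ± 0.44 (adjusted p = 8.35e-05) and 1.44 ± 0.42 (adjusted p = 0.00556) in the authors' deposited tables in the same order. Its mean normalized counts were low, at 14.8, 15.8 and 12.9, and Kcnh8 passed the limit of 10 in each table through the genotype where it is high. Kcnd3, an A-type channel that opens and inactivates fast, was at 0.71 ± 0.18 (adjusted p = 0.000363), 0.82 ± 0.27 (adjusted p = 0.0178) and 0.66 ± 0.18 (adjusted p = 0.00324) in the authors' deposited tables. The difference of 3 months minus 3 weeks in males, tested as described with the ages, was 0.78 for Kcnh2 (adjusted p = 0.327) and 1.80 for Kcnh8 (adjusted p = 0.0864), and neither passed.

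The promoters of these 3 channels are shown because they are the members that rose in every comparison. The 250 bases before the start given in the RefSeq promoter table (GRCm38.p6) lie at chr3:105451640-105451889 on the plus strand for Kcnd3, chr5:24329592-24329841 on the minus strand for Kcnh2 and chr17:52602459-52602708 on the plus strand for Kcnh8, and are written 5′ to 3′ on the strand of the gene, with GC boxes (GGGCGG on either strand) in capitals. That start is the GENCODE gene start for Kcnh8, lies 440 bases before it for Kcnd3, where the bases that follow it were not found in a GENCODE transcript, and lies 22013 bases inside the gene for Kcnh2, at an internal start.
Kcnd3: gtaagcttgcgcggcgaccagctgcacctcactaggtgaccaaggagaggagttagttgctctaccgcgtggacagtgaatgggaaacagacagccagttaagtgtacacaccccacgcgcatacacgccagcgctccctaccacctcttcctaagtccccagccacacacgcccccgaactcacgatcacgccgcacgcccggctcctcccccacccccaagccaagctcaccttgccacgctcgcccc
Kcnh2: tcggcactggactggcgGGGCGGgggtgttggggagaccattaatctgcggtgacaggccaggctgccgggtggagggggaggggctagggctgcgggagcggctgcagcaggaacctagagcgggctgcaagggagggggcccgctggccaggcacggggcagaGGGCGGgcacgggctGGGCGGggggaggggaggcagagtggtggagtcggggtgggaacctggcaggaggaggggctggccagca
Kcnh8: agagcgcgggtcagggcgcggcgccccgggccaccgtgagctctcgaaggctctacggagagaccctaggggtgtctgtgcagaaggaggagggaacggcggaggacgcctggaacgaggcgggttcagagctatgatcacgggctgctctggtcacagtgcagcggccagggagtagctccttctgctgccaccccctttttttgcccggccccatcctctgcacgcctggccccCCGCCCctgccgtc
Kcnh2 holds 3 GC boxes, 233, 85 and 70 bases before the start, Kcnh8 holds 1, 14 bases before it, and Kcnd3 holds none. The response element of ERR receptors was searched as TNAAGGTCA and, within it, as its core AAGGTCA, on both strands. Neither string is in these 3 windows.

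Promoter sequences were found for 67 of 92 members, with 89 annotated starts. The string TNAAGGTCA was in 0 of these 89 windows and in 1.14% of all 32851 windows, and the core AAGGTCA was in 2 (Kcnf1 and Kcnh1, neither of them called), or 2.25%, and in 4.08% of all windows. GC boxes were in 40 member windows, 44.9%, and in 32.7% of all windows. TATAAA was in 2 member windows, 2.25%, and in 12.4% of all. These are matches of letters in windows of 250 bases.

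Another A-type pore subunit, Kcnd2, rose at 3 weeks, by 2.23 ± 0.34 (adjusted p = 2.31e-09) in males and 1.89 ± 0.30 (adjusted p = 2.30e-08) in females in the authors' deposited tables. At 3 months its mean normalized count was 8.42, under the limit of 10, and the authors' deposited table gave 3.63 ± 0.71 with no adjusted p. Their relative Kcnd1, added after its values were seen, was not called at 3 weeks, at 0.86 ± 0.40 (adjusted p = 0.137) in males and 0.16 ± 0.41 (adjusted p = 0.845) in females in the authors' deposited tables, and was not judged at 3 months. Kcnc2, a fast delayed rectifier of firing neurons, was at 0.53 ± 0.35 (adjusted p = 0.188) at 3 months and rose by 0.72 ± 0.21 (adjusted p = 0.00510) in males at 3 weeks, and 0.87 ± 0.21 (adjusted p = 0.000643) in 3-week females in the authors' deposited tables. Kcnb2, a delayed rectifier, was called in 3-week females, at 1.27 ± 0.42 (adjusted p = 0.0179), and was at 1.03 ± 0.42 (adjusted p = 0.0768) in 3-week males in the authors' deposited tables. Kcna5, a delayed rectifier of heart and vessels, was at 0.74 ± 0.33 (adjusted p = 0.0427) at 3 months in the authors' deposited table.

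Subunits that form no channel of their own and modify delayed rectifiers went different ways. Kcns3 rose by 1.71 ± 0.24 (adjusted p = 4.79e-12) at 3 months and was at 0.56 ± 0.24 (adjusted p = 0.0880) in males at 3 weeks, and 0.33 ± 0.19 (adjusted p = 0.239) in 3-week females in the authors' deposited tables. Kcns1 fell by 1.62 ± 0.44 (adjusted p = 0.00267) in 3-week males and was at -0.9998 ± 0.41 (adjusted p = 0.0731) in 3-week females in the authors' deposited tables. Kcng1 was judged at 3 months only, with a mean normalized count of 12.2, and was at -2.94 ± 0.73 (adjusted p = 0.000173) in the authors' deposited table. Means of Kcng1 and Kcns1 lay close to the limit of 10, where a gene can pass through the genotype in which it is high.

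Kcnq1, the voltage-gated pore that pairs with Kcne1 in the proximal tubule, was not called in any comparison. The authors' deposited tables gave it 0.35 ± 0.23 (adjusted p = 0.188) at 3 months, -0.19 ± 0.23 (adjusted p = 0.672) in males at 3 weeks, and -0.62 ± 0.24 (adjusted p = 0.0519) in 3-week females. Kcnq1ot1, the imprinted non-coding RNA read antisense within Kcnq1, was lower at 3 months, at -0.76 ± 0.29 (adjusted p = 0.0164) in the authors' deposited table, which ended with total-count scaling. The sources used here do not say whether counting used strand, and 121 exon bases are shared between the pair.

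The sodium-activated channel Kcnt1 had the largest fall of any tested member in both 3-week comparisons. Kcnt1 (plus strand of chromosome 2, 25863734 to 25918273) opens when sodium rises inside the cell and is known mainly from neurons. In the authors' deposited tables it was at -3.85 ± 0.22 (adjusted p = 5.77e-66) in males at 3 weeks, and -3.30 ± 0.30 (adjusted p = 1.98e-26) in 3-week females, 14.4-fold and 9.88-fold lower in the knockout. Its mean normalized counts were 838 and 691 there. At 3 months it was an outlier with no p, at -2.06 ± 0.54 and a mean of 85.2 in the authors' deposited table. The related Kcnt2 went the other way, at 1.47 ± 0.41 (adjusted p = 0.000834) at 3 months, 0.87 ± 0.26 (adjusted p = 0.00682) in males at 3 weeks, and 0.29 ± 0.32 (adjusted p = 0.594) in 3-week females in the authors' deposited tables.

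The small-conductance calcium-activated channels Kcnn1 and Kcnn2 were lower at 3 weeks. Kcnn3, of the same group, was added after its values were seen and was not called. In the authors' deposited tables Kcnn3 was at 0.26 ± 0.41 at 3 months, 0.19 ± 0.31 in 3-week males and -0.34 ± 0.30 in 3-week females. Kcnn2 was at -1.51 ± 0.48 (adjusted p = 0.00385) at 3 months, a call that ended with total-count scaling, -1.81 ± 0.32 (adjusted p = 5.79e-07) in males at 3 weeks, and -2.01 ± 0.31 (adjusted p = 4.78e-09) in 3-week females in the authors' deposited tables. Kcnn1 was at -0.05 ± 0.22 (adjusted p = 0.842) at 3 months, -0.84 ± 0.31 (adjusted p = 0.0400) in 3-week males, where the call ended with total-count scaling, and -1.21 ± 0.24 (adjusted p = 1.06e-05) in 3-week females in the authors' deposited tables. The intermediate-conductance channel Kcnn4, known from T cells, macrophages and red cells, went up at 3 months. It was at 4.53 ± 0.44 (adjusted p = 1.95e-23) at 3 months, 0.50 ± 0.43 (adjusted p = 0.509) in males at 3 weeks, and 0.22 ± 0.42 (adjusted p = 0.777) in 3-week females in the authors' deposited tables, so that the rise at 3 months was 23.2-fold. Kcnu1, a channel known from sperm, was at 1.44 ± 0.58 (adjusted p = 0.0251) at 3 months with a mean of 14.0 in the authors' deposited table. Kcnma1, the large-conductance channel of flow-induced potassium secretion, was added after its values were seen and was not called, at 0.50 ± 0.34, -0.04 ± 0.23 and -0.16 ± 0.32 in the authors' deposited tables of 3-month males, 3-week males and 3-week females.

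Kcnj11 and Kcnj12 in 3-week males, Kcnj11, Kcnj13 and Kcnj15 in 3-week females, and Kcnj12 and Kcnj13 at 3 months were the inward rectifiers that fell. Of 5 tested at 3 months 1 rose and 2 fell, of 6 in 3-week males 2 fell, and of 7 in 3-week females 3 fell, where 27.8%, 8.52% and 10.4% of all genes fell. All 6 tested in 3-week males and all 7 tested in 3-week females had a negative log2 fold change in the authors' deposited tables, the smallest being -0.08 and -0.01, and total-count scaling turns such small values positive. Kcnj15 was at -0.34 ± 0.21 (adjusted p = 0.298) in males at 3 weeks, and -0.47 ± 0.13 (adjusted p = 0.00488) in 3-week females in the authors' deposited tables, and the second call ended with total-count scaling. At 3 months this most abundant member was an outlier at -2.82 ± 0.47 with no p in the authors' deposited table. Kcnj12, of the strongly rectifying group that holds resting potential, was at -2.25 ± 0.39 (adjusted p = 6.96e-08) at 3 months, -1.41 ± 0.35 (adjusted p = 0.000881) in males at 3 weeks, and -0.20 ± 0.39 (adjusted p = 0.786) in 3-week females in the authors' deposited tables. Kcnj13 was at -1.08 ± 0.43 (adjusted p = 0.0243), -0.32 ± 0.34 (adjusted p = 0.608) and -1.14 ± 0.40 (adjusted p = 0.0264) in the same order in the authors' deposited tables. Both calls of Kcnj13 ended with total-count scaling, and 49.1% of its exon bases overlap Gigyf2 on the other strand.

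Kcnj11, the pore of ATP-sensitive potassium channels that tie membrane voltage to cell energy, changed sign with age. It was at 1.05 ± 0.45 (adjusted p = 0.0362) at 3 months, -1.25 ± 0.42 (adjusted p = 0.0197) in males at 3 weeks, and -1.19 ± 0.37 (adjusted p = 0.00987) in 3-week females in the authors' deposited tables. The call in 3-week males ended with total-count scaling, and its mean normalized counts were 18.5, 51.2 and 40.9. Abcc8, a sulfonylurea receptor that completes such channels, was at 3.77 ± 0.59 (adjusted p = 9.21e-10) at 3 months and was not called at 3 weeks, at 0.11 ± 0.42 in males and -0.59 ± 0.42 in females in the authors' deposited tables. The other receptor, Abcc9, was an outlier at -1.21 ± 0.45 at 3 months, was at -0.49 ± 0.21 (adjusted p = 0.0897) in 3-week males and fell by 0.82 ± 0.17 (adjusted p = 3.26e-05) in 3-week females in the authors' deposited tables. Kcnj8, the ATP-sensitive pore of vessel walls, was an outlier at 0.98 ± 0.50 at 3 months and was not called at 3 weeks, at -0.30 ± 0.26 in males and -0.44 ± 0.19 in females in the authors' deposited tables.

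Tandem-pore-domain channels were called at 3 months. All 6 judged members were called at 3 months, 5 higher and 1 lower, with a median log2 fold change of 2.26, and 0 of 5 tested in 3-week males and 0 of 4 in 3-week females were called. Of all tested genes 57.5%, 17.3% and 18.7% were called in these tables. Kcnk13 is among the 6, but it passed the limit of 10 at 3 months through the genotype where it is high. Kcnk2, which opens with membrane stretch and lipids, was at 4.57 ± 0.43 (adjusted p = 9.33e-25) at 3 months and 0.28 ± 0.26 (adjusted p = 0.554) in 3-week males, and was an outlier at -0.15 ± 0.37 in 3-week females in the authors' deposited tables. That is a 23.8-fold rise at 3 months. Kcnk13, known from microglia, was at 3.10 ± 0.52 (adjusted p = 1.34e-08), -0.60 ± 0.38 (adjusted p = 0.319) and -0.22 ± 0.38 (adjusted p = 0.749) in 3-month males, 3-week males and 3-week females in the authors' deposited tables, with a mean of 16.2 at 3 months. Kcnk3, an acid-sensitive background channel, was at 2.61 ± 0.39 (adjusted p = 1.48e-10) at 3 months and an outlier at -0.01 ± 0.42 in 3-week males and -0.20 ± 0.42 in 3-week females in the authors' deposited tables. Kcnk6 was at 1.91 ± 0.33 (adjusted p = 4.12e-08), 0.43 ± 0.23 (adjusted p = 0.210) and 0.45 ± 0.25 (adjusted p = 0.215) in the same order in the authors' deposited tables.

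The abundant tubular members of this group parted at 3 months. Kcnk1, a weak inward background channel of tubules, was at 1.62 ± 0.17 (adjusted p = 4.16e-21) at 3 months and close to 0 at 3 weeks, at -0.00 ± 0.15 (adjusted p = 0.994) in males and 0.02 ± 0.17 (adjusted p = 0.967) in females in the authors' deposited tables. Kcnk5 was at -1.79 ± 0.43 (adjusted p = 9.81e-05) at 3 months, -0.58 ± 0.25 (adjusted p = 0.0944) in males at 3 weeks, and -0.52 ± 0.22 (adjusted p = 0.0863) in 3-week females in the authors' deposited tables. Kcnk5 was thus the tandem-pore member that fell, where Kcnk1 rose.

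**Figure D3:**
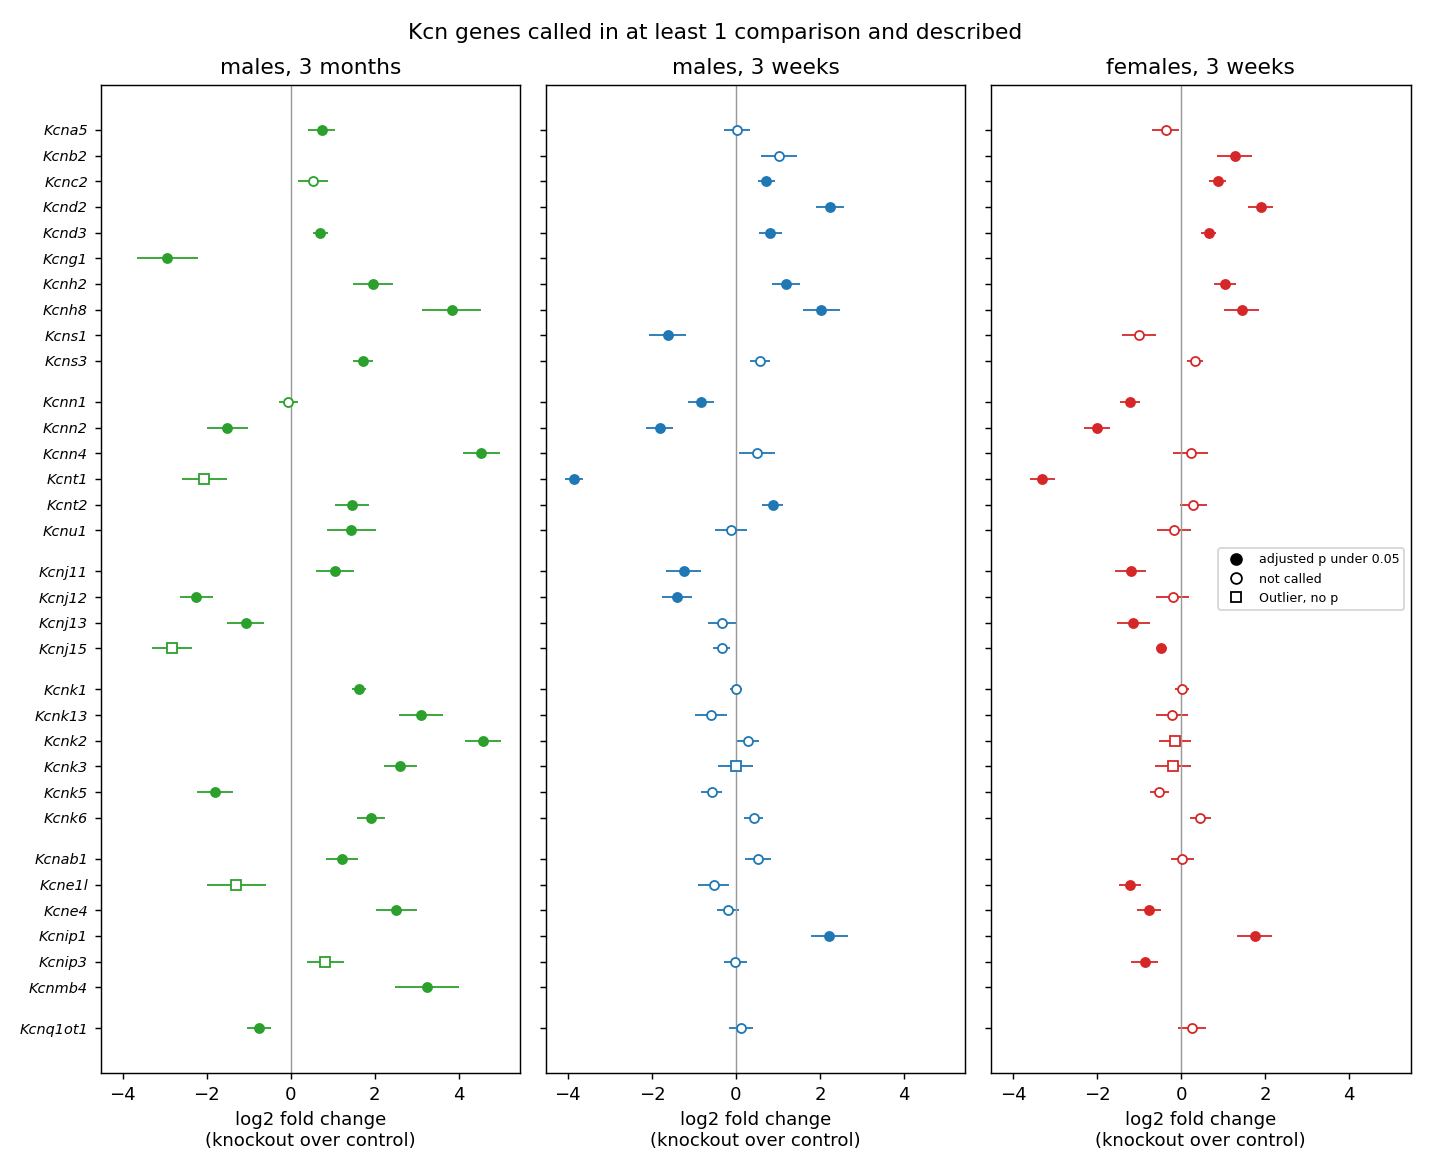
Points give the log2 fold change, knockout over control, with its standard error from the authors' deposited tables for described members called in at least 1 comparison, drawn where their mean is at least 10, grouped as voltage-gated, calcium- and sodium-activated, inward rectifier, tandem-pore, accessory and non-coding from the top. Filled points were called, open circles were not, and open squares are outliers without a p; Kcnk2 and Kcnn4 lie above 4 at 3 months, and Kcnt1 lies below -3 in both 3-week panels.

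Accessory subunits trap, gate or traffic the pores. Of 7 tested at 3 months 3 rose and none fell, of 13 in 3-week males 1 rose and none fell, and of 11 in 3-week females 1 rose and 3 fell, while 4 more were outliers at 3 months. Over all tested genes 29.8%, 8.81% and 8.29% rose in the same order, and 27.8%, 8.52% and 10.4% fell. Kcnip1, a calcium-binding partner of the A-type pores Kcnd2 and Kcnd3, was at 2.22 ± 0.44 (adjusted p = 1.19e-05) in males at 3 weeks, and 1.75 ± 0.42 (adjusted p = 0.000385) in 3-week females in the authors' deposited tables, with means of 17.4 and 11.7. At 3 months its mean was 0.324, so it was not judged. Kcnip2, a partner of the same pores, was an outlier at -1.70 ± 0.53 at 3 months, was at 0.07 ± 0.18 (adjusted p = 0.861) in 3-week males and an outlier at -0.09 ± 0.33 in 3-week females in the authors' deposited tables. Kcnip3 was an outlier at 0.82 ± 0.44 at 3 months, was at -0.01 ± 0.28 (adjusted p = 0.989) in 3-week males and fell by 0.87 ± 0.32 (adjusted p = 0.0414) in 3-week females in the authors' deposited tables, a call that ended with total-count scaling.

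Kcne4, which inhibits Kcnq1 currents, was at 2.52 ± 0.48 (adjusted p = 8.64e-07) at 3 months, -0.20 ± 0.26 (adjusted p = 0.709) in males at 3 weeks, and -0.77 ± 0.29 (adjusted p = 0.0470) in 3-week females in the authors' deposited tables, and the last call ended with total-count scaling. Kcne1l was an outlier at -1.29 ± 0.70 at 3 months, was at -0.53 ± 0.37 (adjusted p = 0.369) in 3-week males and fell by 1.21 ± 0.26 (adjusted p = 6.60e-05) in 3-week females in the authors' deposited tables. Kcne1, the abundant partner of Kcnq1, was an outlier at -0.28 ± 0.57 at 3 months and 0.10 ± 0.28 in 3-week males, and was at -0.02 ± 0.21 (adjusted p = 0.974) in 3-week females in the authors' deposited tables. Kcnab1, a cytosolic partner of Kcna pores, rose by 1.22 ± 0.38 (adjusted p = 0.00313) at 3 months in the authors' deposited table. Kcnmb4, a subunit of the large-conductance channel, was at 3.24 ± 0.77 (adjusted p = 8.22e-05) there at a mean of 10.2, which passes the limit through the genotype where it is high, and antisense genes cover 20.8% and 10.7% of its exon bases. Outliers make up 19.1% of judged members at 3 months, 9 of 47, where they are 10.6% of all genes with such means. Kcnf1 at 3 months (-0.22 ± 0.71) and Kcnj5 in 3-week males (-0.04 ± 0.41) were further outliers in the authors' deposited tables.

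Members that missed the threshold are given by their range. Of the tested members 15 at 3 months, 44 in 3-week males and 36 in 3-week females were not called, with log2 fold changes in the authors' deposited tables between -0.50 and 1.00, between -0.60 and 1.12 and between -0.9998 and 0.53.

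Genes that work with the channels were counted from lists chosen with earlier results of these data known. Their counts stand beside 29.8% of all tested genes higher and 27.8% lower at 3 months. At 3 weeks these shares were 8.81% and 8.52% in males, and 8.29% and 10.4% in females. Of channel partners outside the symbol family, 2 of 7 tested rose and 3 fell at 3 months, 2 of 12 fell in 3-week males, and 1 of 11 rose and 3 fell in 3-week females. Lrrc52, an auxiliary protein of large-conductance channels, had the largest fall of this list in each table, at -5.10 ± 0.67 (adjusted p = 2.59e-13) at 3 months, -3.78 ± 0.42 (adjusted p = 3.19e-17) in males at 3 weeks, and -3.12 ± 0.41 (adjusted p = 2.92e-12) in 3-week females in the authors' deposited tables. Potassium pumps and cotransporters had 7 of 11 higher and 1 lower at 3 months, 4 of 14 lower in 3-week males and 5 of 12 lower in 3-week females. Genes that control renal potassium secretion had 3 of 13 higher and 3 lower at 3 months, 2 of 18 higher and 5 lower in 3-week males, and 2 of 17 higher and 6 lower in 3-week females. The last list therefore showed no single direction in any comparison.

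No difference between the sexes passed the test at 3 weeks. Of the 13 members called in males and the 18 called in females, 10 were called in both with the same sign, which is 76.9% of the calls in males and 55.6% of those in females, and 0 had opposite signs. Those 10 were Kcnc2, Kcnd2, Kcnd3, Kcnh2, Kcnh8 and Kcnip1, higher, and Kcnj11, Kcnn1, Kcnn2 and Kcnt1, lower. Among them Kcnh8 and Kcnip1 passed the limit on the mean through the genotype where they are high. Of all tested genes 17.3% were called in 3-week males and 18.7% in 3-week females. The overlap among all called genes was not counted, so 76.9% and 55.6% describe the members only. The difference of the log2 fold changes, males minus females, was tested against its standard error in a normal test with Benjamini-Hochberg adjustment over 13737 genes, of which 0 (0%) were called. Among 52 members 0 were called and 2 had an unadjusted p under 0.05, where 237 of all genes had one. These were Kcnj12, at a difference of -1.21 with a 95% interval from -2.24 to -0.18, and Kcnip3, at 0.86 with an interval from 0.02 to 1.70, both with adjusted p = 1.00. For Kcnt1 the difference was -0.54, with an interval from -1.26 to 0.18.

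**Figure D4:**
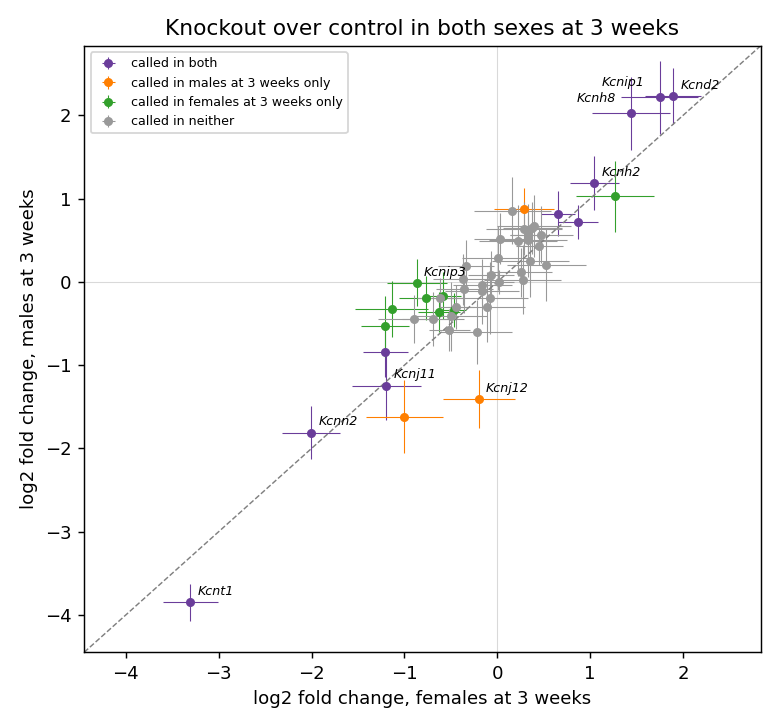
Each point is a Kcn gene tested in both 3-week tables, with the log2 fold change (knockout over control) in females on the x axis and in males on the y axis, bars of 1 standard error and a dashed line of equal values. The 10 members called in both sexes lie near the line, from Kcnt1 at -3.85 in males and -3.30 in females to Kcnd2 at 2.23 in males and 1.89 in females.

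The effect of the knockout differed with age for 8 members. The same test of 3 months minus 3 weeks in males called 3418 of 12355 genes, 27.7%, and 8 of 34 members, all with a higher value at 3 months. The differences were 4.29 ± 0.50 for Kcnk2 (adjusted p = 4.55e-15), 4.04 ± 0.61 for Kcnn4 (adjusted p = 2.72e-09) and 3.70 ± 0.64 for Kcnk13 (adjusted p = 2.95e-07). Kcne4 followed at 2.71 ± 0.55 (adjusted p = 1.52e-05) and Kcnj11 at 2.30 ± 0.61 (adjusted p = 0.00153). Smaller differences were those of Kcnk1 at 1.62 ± 0.22 (adjusted p = 3.42e-11), Kcnk6 at 1.48 ± 0.40 (adjusted p = 0.00181) and Kcns3 at 1.15 ± 0.34 (adjusted p = 0.00426). Kcnk2, Kcnk13, Kcnk1 and Kcnk6 among them are tandem-pore channels. Kcnn4 and Kcnk13 passed the limit of 10 at 3 months through the genotype where they are high. The share of members called, 8 of 34 or 23.5%, is no higher than that of all genes. Kcnk5 differed by -1.21 ± 0.50 (adjusted p = 0.0520) and did not pass. For Kcnd3 the difference was -0.11, with a 95% interval from -0.75 to 0.53, and for Kcnn2 it was 0.30, from -0.83 to 1.43. Total-count scaling of both tables calls 13 members, all higher, and centring calls 9, of which 1 is lower. The tables differ in the ceiling of their standard errors, 1.10 at 3 months and 0.44 in 3-week males, so the sizes of fold changes may not be on the same footing.

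**Figure D5:**
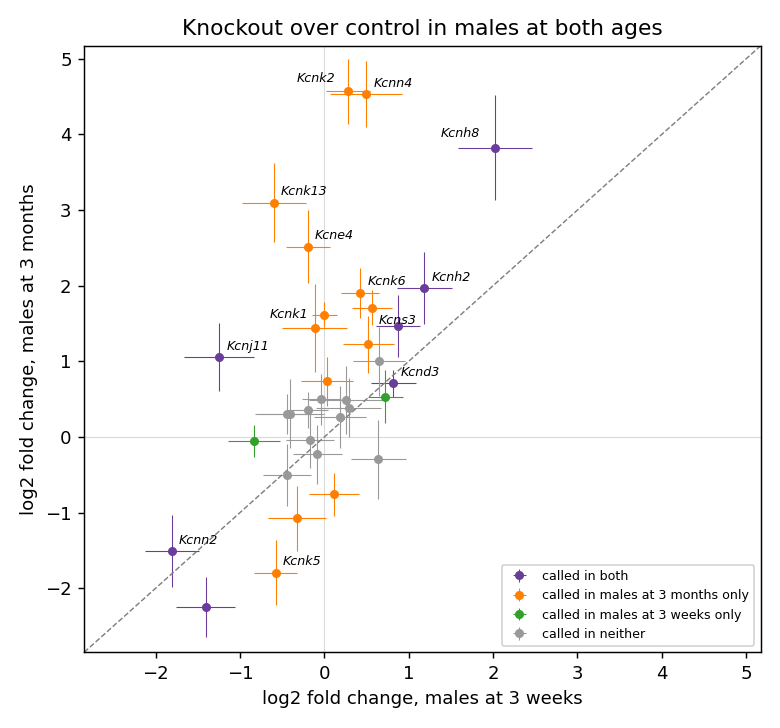
Each point is a Kcn gene tested in males at both ages, with the log2 fold change (knockout over control) at 3 weeks on the x axis and at 3 months on the y axis, bars of 1 standard error and a dashed line of equal values. Kcnk2 and Kcnn4 stand at 4.57 and 4.53 at 3 months and at 0.28 and 0.50 at 3 weeks, while Kcnd3 lies near the line.

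Markers of other cells moved in the same tables. At 3 months macrophage markers were higher in 8 of 8 tested genes (median log2 fold change 3.90), T cell markers in 9 of 9 (2.18), vascular mural markers in 9 of 9 (1.53), fibroblast markers in 4 of 4 (3.10) and urothelial markers in 3 of 3 (5.52), with none lower and none listed at 0. Summed over their genes, the mean normalized counts of these lists were 11914, 396, 6981, 13275 and 14369. These sums include genes without a p as outliers, which numbered 1, 0, 1, 5 and 5 at 3 months in that order. Over all tested genes 29.8% were higher at 3 months, 8.81% in 3-week males and 8.29% in 3-week females. In 3-week males the same lists had 8 of 9, 4 of 9, 0 of 4, 2 of 3 and 2 of 2 higher, and 1 mural marker lower. In 3-week females they had 8 of 9, 3 of 8, 0 of 5, 6 of 8 and 2 of 2 higher, and 3 mural markers lower. Outliers at 3 weeks numbered 0, 0, 6, 6 and 6 in males, and 0, 1, 5, 1 and 6 in females. B cell markers had none called in any table, and Abcc9 stands both among the mural markers and among the channel partners. Their part in the rise of Kcnn4, Kcnk13, Kcnk2, Kcnk3, Kcna5 and Kcne4 was not tested.

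Markers of most tubule segments had more lower than higher calls, but many had no p as outliers, among them 8 of 10 proximal tubule and 10 of 12 intercalated cell markers at 3 months. Over all tested genes 27.8% were lower at 3 months, 8.52% in 3-week males and 10.4% in 3-week females. Higher were 29.8%, 8.81% and 8.29% of all tested genes. Thick ascending limb markers were lower in 1 of 2 tested genes at 3 months, 5 of 8 in 3-week males and 4 of 7 in 3-week females, and distal convoluted and connecting tubule markers in 3 of 3, 5 of 7 and 5 of 6, with 1 higher in each 3-week table. Intercalated cell markers were higher in 1 of 2 tested genes at 3 months and lower in 5 of 9 in 3-week males and 4 of 9 in 3-week females. Principal cell markers were higher in 4 of 5 at 3 months and 3 of 6 in 3-week males, and 0 of 1 was called in 3-week females. Endothelial markers were lower in 2 of 7 and higher in 1 at 3 months, and lower in 5 of 10 in 3-week males and 10 of 10 in 3-week females. Podocyte markers were lower in 3 of 6 and higher in 1, lower in 3 of 8 and lower in 2 of 8 in the same order. Nerve and glia markers were lower in 2 of 2, 0 of 5 and 1 of 5, with none higher, and adrenal cortex markers had none called in any table. Their part in the fall of Kcnt1, Kcnn1, Kcnn2, Kcnk5 and the inward rectifiers was not tested.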

How the data were processed

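Polyadenylated kidney RNA was sequenced from stranded TruSeq libraries, per the labels' protocols, and groups were taken from the titles. The submitters' processing notes name mm10, STAR, HOMER and DESeq2, their versions being not given in the sources used here. Each of the authors' deposited tables holds, per the file headers, the normalized signal averaged over libraries (counts over size factors), log2 fold changes, standard errors, raw and adjusted p-values, and a status. Each deposited p-value equalled the normal p of fold change over standard error within 1%. Means under 10 carry the status Low and no adjusted p, and Outlier genes carry no p; the sources used here do not explain the status. Fold changes may have been moderated towards 0. Libraries were counted from recurring means under 2 shared by at least 20 genes, and split by the sign of the fold change. Symbols turned into dates (27) were left out.

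The members and lists were chosen with earlier results of these data known. Named genes were all members called in a table, those with a difference between tables, outliers, and the 6 with the highest level per kilobase; some of these are not reported here, though counts over members include them. All 92 members matched GENCODE M21, which gave coordinates and exon lengths. Promoters came from RefSeq (GRCm38.p6). Differences between tables were tested with scipy 1.17.1 after a check on simulated data, assuming that the tables share no library. Each p-value reflects only how far the libraries of its table spread, which may be technical. No count model could be fitted, and neither a replicate block nor leaving out a library was possible. The alternatives were other limits on means, p and fold size, centring, total-count scaling, keeping outliers, and pore-forming subunits only.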

Additional observations from a re-analysis of the deposited data

Results flagged for a closer look

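The effect of the knockout differed between 3 months and 3 weeks in males for 8 members by the test of the difference, 3-month minus 3-week log2 fold change. These are 23.5% of 34 members tested, where 27.7% of all 12355 genes tested were called. The differences were 4.29 for Kcnk2, 4.04 for Kcnn4, 3.70 for Kcnk13, 2.71 for Kcne4, 2.30 for Kcnj11, 1.62 for Kcnk1, 1.48 for Kcnk6 and 1.15 for Kcns3. Of these Kcnj11 was called in both tables with opposite signs. Kcnn4 and Kcnk13 entered at 3 months through the genotype where they are high, which carried their means past the limit of 10.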

How the results depend on the processing

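The 3 comparisons kept their counts of called members within 1.5 times under most of the 8 alternatives tried for each. The exceptions were 11 called in 3-week females, in place of 18, with a log2 fold change of at least 1 also required, and 12 at 3 months, in place of 23, with a mean of at least 50. Total-count scaling of both ages, chosen after seeing the data, called 13 members for the age difference in place of 8, and no member for the sex difference. With it 3 of 23 single-gene calls ended at 3 months, 2 of 13 in 3-week males and 6 of 18 in 3-week females, and none reversed; centring on the median ended none. The cause was not tested. No paired analysis was possible because the numbers in the titles do not repeat between groups and the tables hold no value per library. Leaving out single libraries was not possible for the same reason. Low counts limit Kcnh8, Kcnip1, Kcng1, Kcns1, Kcnk13, Kcnmb4 and Kcnu1.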
